A study of Canis lupus familiaris with 4 samples.

Results

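The genes described are 40 genes of G2 and mitosis, listed by name from textbook roles in the cyclin-CDK switch, the spindle, the kinetochore, cell division and proliferation. All probe sets that the platform annotation pairs with 1 of these symbols were taken, which gave 70 of 42924 probe sets and 34 of the 40 genes, out of 15115 genes with a probe set. CCNB1, BUB1, MAD2L1, KIF20A, CENPE and MKI67 were not analysed here. Their RNA was read on 4 Affymetrix arrays from MDCKII, an established line of dog kidney epithelial cells. The groups were HIF1A WT in normoxia, HIF1A KD in normoxia, HIF1A WT in hypoxia and HIF1A KD in hypoxia, with 1 array each. KD stands for a knockdown of HIF1A, by a method and against a control that the labels do not name. All cells had 24 h of normoxia and then another 24 h in the labelled oxygen condition, at an oxygen level that the labels do not name. The study set hypoxia against normoxia and cells with knockdown against cells without.

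Entry into mitosis is driven by CDK1 bound to cyclin A or cyclin B, which the CDC25 phosphatases switch on. FOXM1 and the B-MYB and MuvB proteins turn on most of these genes late in the cell cycle, and the anaphase-promoting complex with CDC20 ends mitosis by having cyclin B and securin destroyed. Because the transcripts rise and fall with the cell cycle, their level in a culture is widely read as a sign of proliferation. In a bulk array more dividing cells and more RNA per dividing cell cannot be told apart.

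Differences are of log2(intensity + 16), where 16 was added so that dim values weigh less, and they understate the change of dim genes. Fold thresholds apply to these differences. A gene is represented by its brightest probe set. The floor is set at the overall median, which is an intensity of 46.3, and a gene was tested if at least 1 array reached it. Of the 34 measured members 32 reached the floor, all of them in all 4 arrays, so none passed through a single high group. CDC25B, a phosphatase that activates CDK1, read 40.8, 30.7, 32.9 and 32.4 in WT and KD normoxia and then in WT and KD hypoxia, by label. CDCA8, the borealin subunit of the chromosomal passenger complex, read 22.3, 36.7, 13.4 and 27.2 in that order, which is kept below wherever 4 values stand together. Both lay below the floor in every array, so no size is read from their differences.

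HIF1A, the targeted gene, went against its label. It read 3651 and 3435 in the arrays labelled WT and KD normoxia and 675 and 625 in those labelled WT and KD hypoxia. In limma's additive model it fell by 2.42 with labelled hypoxia (adjusted p = 4.44e-07), while its genotype term was -0.10 (adjusted p = 0.494). Were the arrays labelled KD normoxia and WT hypoxia exchanged, HIF1A would divide by genotype, and every oxygen term below would be a genotype term and the reverse. Whether they changed places was not tested, and directions are given as labelled. Of 11 kidney epithelial markers 8 were above the floor in all arrays, with KRT18 from 12783 to 14418 and EPCAM from 9356 to 11319, while CDH1, PAX8 and PAX2 were below it in all 4. Across arrays the summed intensity ran from 38539 to 40884 for the epithelial list, from 97.1 to 107.4 for 5 fibroblast markers, from 194 to 268 for 4 endothelial markers and from 71.1 to 105.1 for 3 leukocyte markers, and the lists are not compared with each other. Of these other markers PDGFRA (49 to 60.5), CDH5 (104 to 178) and KDR (47.3 to 66.1) were above the floor in all arrays and PTPRC (44.0 to 69.3) in 2. COL1A1, COL1A2, COL3A1, PDGFRB, PECAM1, TEK, CD3E and LYZ were below the floor in every array. With 1 array per group no pair of arrays can be tested, and precision is limited by how few arrays there are. The limma terms have 1 residual degree of freedom and draw most of their variance from other genes of like intensity, so their p-values do not measure the spread between cultures.

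Mean intensities of the 34 members over the 4 arrays ran from 24.9 (CDCA8) to 5395 (TOP2A), which is given as a description, since levels of different probe sets are not comparable. Of the 32 members that reached the floor, 28 were less than 1.5-fold apart in all 4 pairs of arrays (87.5%), as were 83.1% of all 9834 tested genes. The array labelled KD normoxia was the lowest for 18 of the 34 (52.9%, against 29.1% of all genes) and the array labelled WT hypoxia the highest for 17 (50%, against 27.5% of all genes). The median log2 level over the members did not follow that order, at 10.01 and 10.15 in WT and KD normoxia and 9.84 and 9.71 in WT and KD hypoxia, since it is the level of whichever genes lie in the middle.

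**Figure D1:**
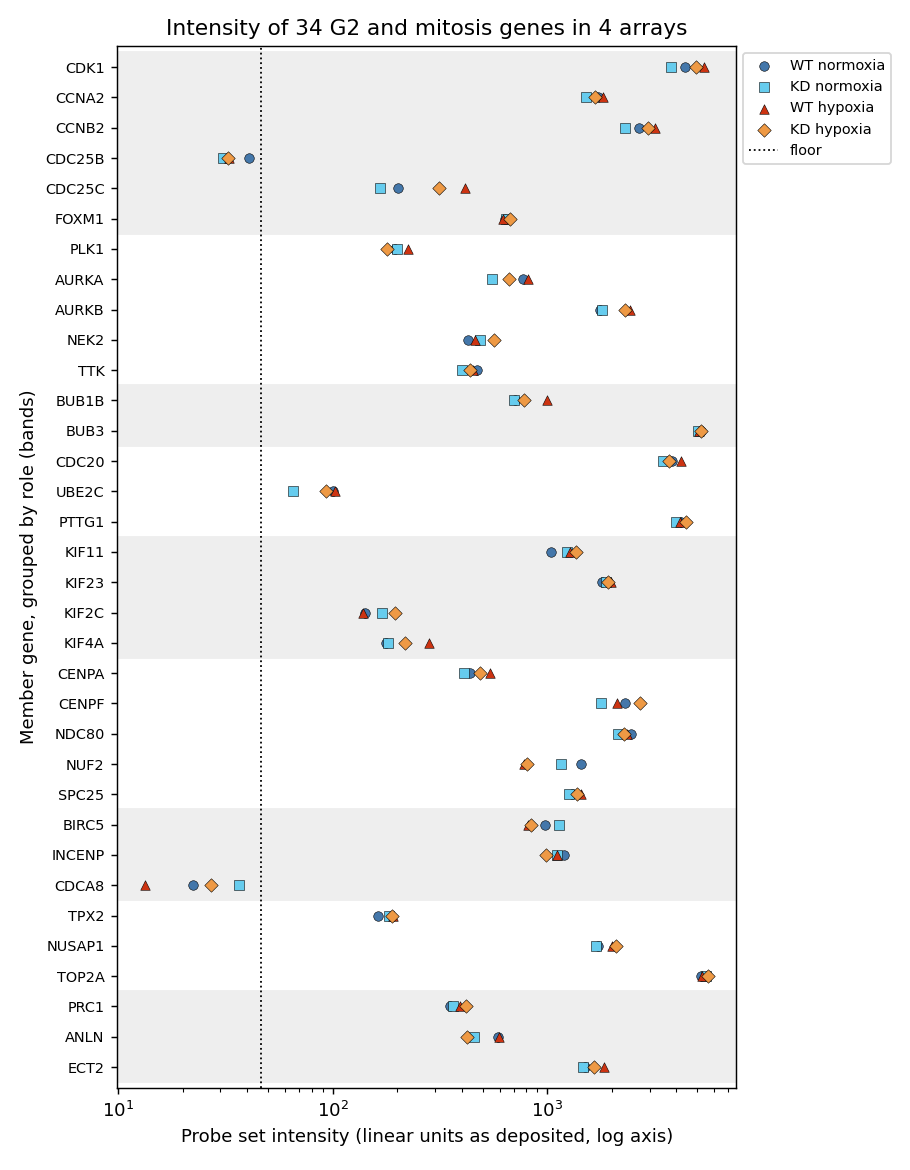
Intensity of the 34 measured members (horizontal axis, linear units as deposited on a log axis) in each of the 4 arrays, 1 symbol per array, with shaded bands separating the roles and a dotted line at the floor of 46.3. CDC25B and CDCA8 lie below the line in every array, CDC25C and NUF2 separate by the oxygen label, and for 18 genes the lowest symbol is the array labelled KD normoxia.

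Set by oxygen label, the members were shifted slightly upward, with an interval that includes 0 in WT but not in KD. In WT cells 22 of 34 were higher in the array labelled hypoxia and 12 lower, with a median of 0.09 (95% interval from order statistics over genes, which are not independent replicates, -0.02 to 0.21) against 0.01 over all 15115 genes, of which 51.3% were higher. In KD cells 28 were higher and 6 lower, with a median of 0.14 (0.05 to 0.21) against 0.01 over all genes, of which 51.2% were higher. The WT and KD pairs share no array. In both pairs 20 members were higher and 4 lower, or 58.8% and 11.8%, where 31.9% and 28.6% of all genes were. At least 1.5-fold higher in WT were CDC25C and KIF4A, 2 of 32 where 3.34% of 9834 tested genes were, and at least 1.5-fold lower was NUF2, against 2.88%. In KD, CDC25C and CENPF were at least 1.5-fold higher, against 3.41% of genes, and 0 members were that much lower, against 4.05%. None of the 32 reached 2-fold in either pair by these log2 differences, in which a constant is added to each intensity. The plain intensities of CDC25C, 201 in WT normoxia and 414 in WT hypoxia, were just over 2-fold apart.

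In limma's hypoxia term 4 of 32 tested members rose (12.5%, against 4.72% of all 9834 genes) and 2 fell (6.25%, against 4.17%). CDC25C, CDK1, CCNB2 and AURKB rose, and NUF2 and BIRC5 fell. The other 26 did not pass the test, and 28 of the 32 had a term above 0, as had 52.4% of all genes. All 6 calls are lost without the intensity trend of limma's prior (adjusted p from 0.113 to 0.247) and also without the floor (0.0575 to 0.171).

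**Figure D2:**
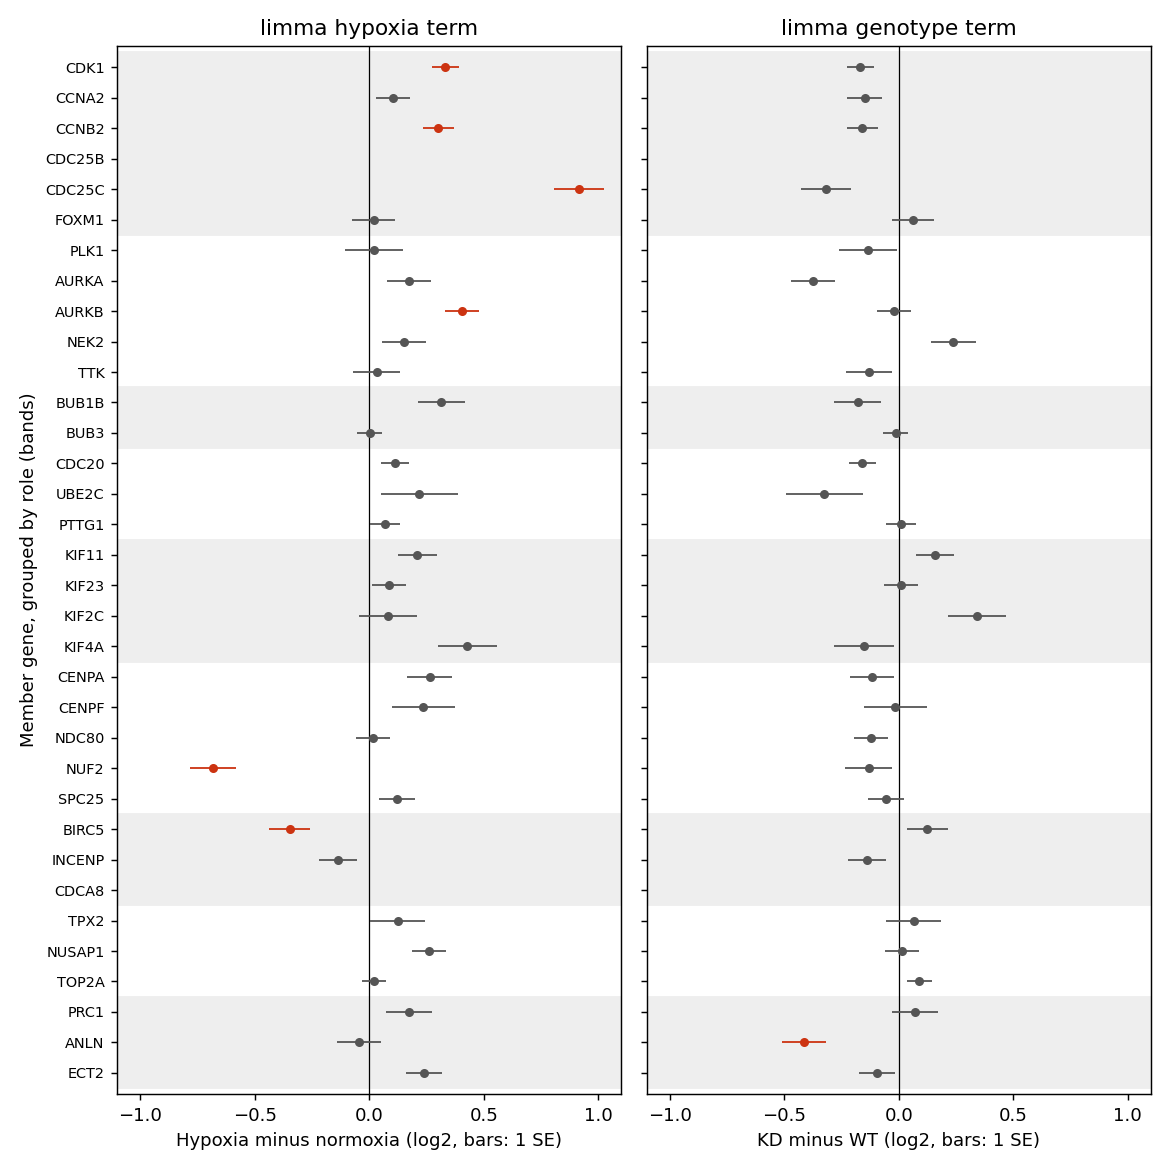
Terms of limma's additive model (horizontal axes, log2 difference) with bars of 1 SE for the 32 tested members, labelled hypoxia minus normoxia at left and labelled KD minus WT at right, red where the adjusted p is under 0.05. CDC25C lies farthest right and NUF2 farthest left in the hypoxia panel, and ANLN is the only red point in the genotype panel.

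The CDK1 switch held 3 of the 4 genes that rose. CDC25C, the phosphatase that removes the inhibitory phosphates from CDK1, read 201 in WT normoxia, 167 in KD normoxia, 414 in WT hypoxia and 314 in KD hypoxia. Both arrays labelled hypoxia lay above both labelled normoxia, and within each oxygen label the KD array was the lower. The oxygen difference came to 0.98 for WT and 0.85 for KD, and the limma hypoxia term rose by 0.92 (SE 0.11, adjusted p = 0.00126). CDC25C has 1 probe set on the array.

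CDK1, the kinase at the centre of mitotic entry, read 4404, 3789, 5369 and 4939.6 in the same order of arrays. The groups separated by oxygen label, with the KD array lower at each. It rose by 0.33 (SE 0.06, adjusted p = 0.00862) with labelled hypoxia. Its other probe sets had mean oxygen differences of 0.28 and 0.11, and the last read 2986 in both KD arrays, with 0.23 in WT and 0.00 in KD. Neither of them passed when limma tested each probe set (adjusted p = 0.0526 and 0.398). CCNB2, cyclin B2, read 2685, 2300.5, 3173 and 2966, again in the order KD normoxia, WT normoxia, KD hypoxia, WT hypoxia from low to high. It rose by 0.30 (SE 0.07, adjusted p = 0.0275). Its dimmer probe set differed by 0.42 (adjusted p = 0.0337 when each probe set was tested by limma).

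CCNA2, cyclin A2, read 1725, 1517, 1811 and 1672, with KD hypoxia below WT normoxia, so the oxygen labels overlapped. Its hypoxia term was 0.10 (adjusted p = 0.459). FOXM1, the transcription factor that turns on many of these genes, read 635, 643, 624 and 673, with overlapping oxygen labels and both KD arrays slightly above both WT arrays. Its hypoxia term was 0.02 (adjusted p = 0.925) and its genotype term 0.06 (adjusted p = 0.742).

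Among the mitotic kinases AURKB rose and 4 did not pass the test. AURKB, the kinase of the chromosomal passenger complex that corrects faulty attachments, read 1757 and 1797 in the arrays labelled WT and KD normoxia and 2423 and 2298 in those labelled WT and KD hypoxia. Both hypoxia arrays exceeded both normoxia arrays, and the genotypes lay close together. It rose by 0.41 (SE 0.07, adjusted p = 0.00999714). The second probe set, at 642, 596, 787 and 777, had a mean oxygen difference of 0.33 (adjusted p = 0.0475 when each probe set was tested by limma). PLK1, which drives centrosome maturation and mitotic entry, read 196, 200.5, 225 and 180.1 and had a hypoxia term of 0.02 (adjusted p = 0.940). TTK, the checkpoint kinase MPS1, read 469, 402, 452 and 437 (hypoxia term 0.03), and NEK2, a centrosome kinase, 428, 488, 459 and 566 (0.15). For PLK1, TTK and NEK2 the oxygen labels overlapped.

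Of the partners of AURKB in the chromosomal passenger complex, BIRC5 fell and INCENP did not pass the test. BIRC5, survivin, which brings the complex to centromeres, read 980 and 1137 in WT and KD normoxia and 815 and 838 in WT and KD hypoxia, so both hypoxia arrays were the lower. It fell by 0.35 (SE 0.09, adjusted p = 0.0459). Its second probe set, at 495, 484, 404 and 410, had a mean difference of -0.26. That probe set did not pass when limma tested each probe set (adjusted p = 0.157). INCENP, the scaffold of the complex, read 1202, 1108, 1111 and 992, with a hypoxia term of -0.13 (adjusted p = 0.378). Its 4 probe sets above the floor disagreed, with mean oxygen differences from -0.16 to 0.25.

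At the kinetochore, NUF2 fell, and the other subunits of its complex did not pass the test. NUF2 and NDC80 form the microtubule-binding arm of the NDC80 complex, and SPC25 belongs to the part that anchors it. NUF2 read 1430 and 1155 in WT and KD normoxia and 784 and 807 in WT and KD hypoxia. Both hypoxia arrays lay well below both normoxia arrays, as they did in the second probe set on the same arrays, at 572, 533, 334 and 331. NUF2 fell by 0.68 (SE 0.10, adjusted p = 0.00363), and the second probe set had a mean difference of -0.70 (adjusted p = 4.74e-04 when each probe set was tested by limma). NDC80 read 2461, 2135, 2350 and 2290.1, with a hypoxia term of 0.02 (adjusted p = 0.920), and its 3 probe sets ran from 0.02 to 0.13. SPC25 read 1311, 1268, 1435 and 1375, with a hypoxia term of 0.12 (adjusted p = 0.401). SPC24, a subunit that is not among the members, read 1153, 991, 989 and 952. SPC24 differed by -0.22 in WT and -0.06 in KD, with a hypoxia term of -0.14 (adjusted p = 0.400). Its genotype term was about as large, at -0.13 (adjusted p = 0.410), and its arrays labelled KD normoxia and WT hypoxia were nearly equal.

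Other centromere genes gave no call. CENPA, the histone H3 variant that marks the centromere, read 438, 411, 540.1 and 487, with both hypoxia arrays higher and a hypoxia term of 0.26 (adjusted p = 0.135). CENPF, a large kinetochore protein of G2, read 2316, 1784, 2125 and 2704 in its brightest probe set, which was low in KD normoxia and high in KD hypoxia. The oxygen difference was -0.12 in WT and 0.60 in KD. The other CENPF probe set, at 311, 271, 388 and 335, differed by 0.30 in WT and 0.29 in KD. The brightest probe set has a gene ID that the RefSeq table used does not hold, so its name rests on the platform annotation.

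Spindle checkpoint genes did not pass the test. BUB1B, the checkpoint kinase BUBR1, read 710 (709.9), 702, 995 and 782, highest in WT hypoxia, with a hypoxia term of 0.32 (SE 0.10, adjusted p = 0.0984). BUB3, its binding partner, read 5222, 5070.1, 5124 and 5187, with a term of 0.00 (adjusted p = 0.984).

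Kinesins, the motor proteins of the spindle, likewise gave no call, and all 4 measured had hypoxia terms above 0. KIF4A, which organises chromosomes and the spindle midzone, read 177, 182, 280.1 and 217, with 0.62 in WT, 0.24 in KD and a term of 0.43 (SE 0.13, adjusted p = 0.0759). The same KIF4A probe set passed when limma tested each probe set (adjusted p = 0.0463). KIF11, which pushes spindle poles apart, read 1047, 1234, 1279.8 and 1357 (term 0.21, adjusted p = 0.168). KIF23, of the centralspindlin complex, read 1794, 1875, 1977 and 1918 (0.09). KIF2C, which takes microtubules apart at centromeres, read 142, 169, 139 and 196 (0.08), and its second probe set above the floor differed by 0.43.

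Genes of chromosome structure and of the spindle showed how far probe sets can disagree. TOP2A, the topoisomerase that untangles sister chromatids, read 5202, 5507, 5247 and 5623, with a hypoxia term of 0.02 (SE 0.05, adjusted p = 0.857). NUSAP1, a microtubule-bundling protein, read 1722, 1693, 2013 and 2085 in its brightest probe set (term 0.26, adjusted p = 0.0623), and 758, 949, 545 and 949.8 in the next, which was lowest in WT hypoxia and alike in both KD arrays. TPX2, which activates AURKA on the spindle, read 163, 182, 190.4 and 188 in one probe set (term 0.12) and 142, 196, 112 and 164 in another (mean oxygen difference -0.27).

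Regulators of mitotic exit and the cytokinesis genes had no call by oxygen. CDC20, the activator of the anaphase-promoting complex, read 3830.5, 3478, 4197 and 3709 (term 0.11, adjusted p = 0.305). PTTG1, securin, which holds separase inactive, read 4217, 3987, 4153 and 4457 (0.07). UBE2C, the ubiquitin-conjugating enzyme of that complex, read 100.9, 65.1, 102 and 92.7 (0.22, SE 0.17). ECT2, which activates RhoA for furrowing, read 1500.2, 1464, 1847 and 1661, with both hypoxia arrays higher (term 0.24, adjusted p = 0.0971). PRC1, which bundles midzone microtubules, read 351, 365, 393 and 418 (0.17, adjusted p = 0.341).

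**Figure D3:**
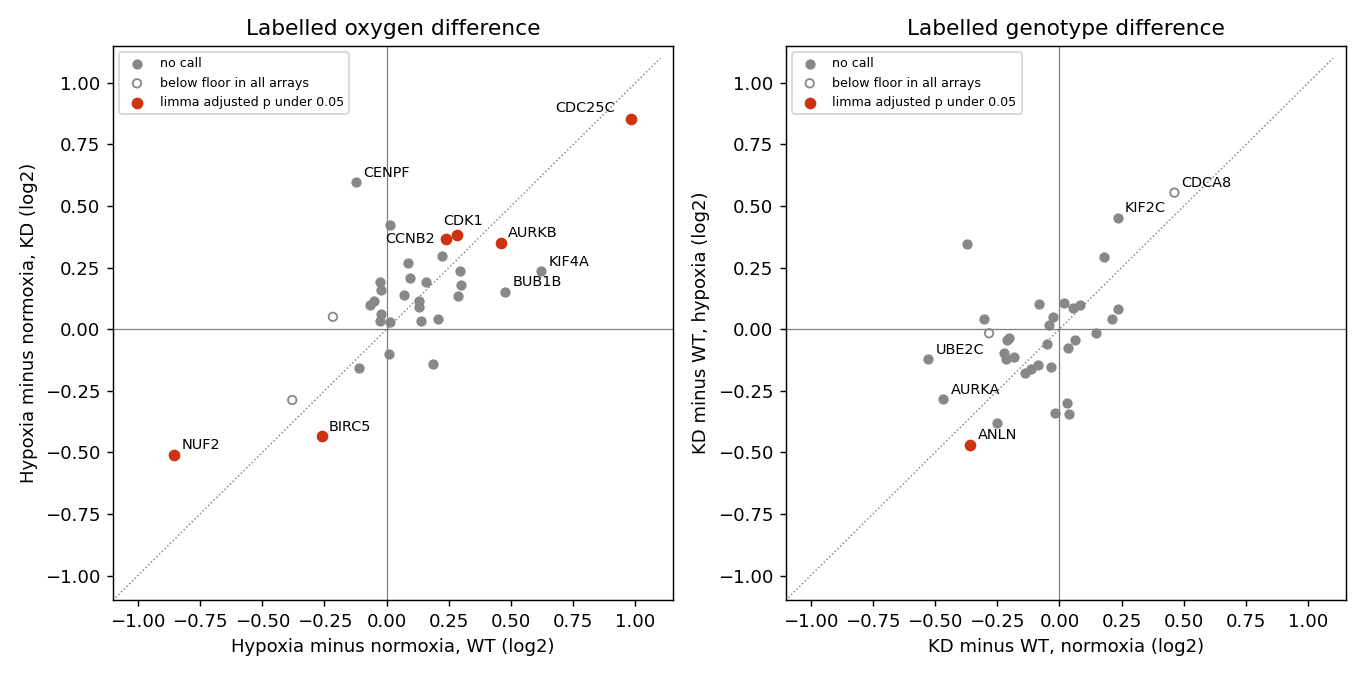
Each point is 1 of the 34 measured members, in log2 differences, with the WT pair against the KD pair for oxygen at left and the normoxia pair against the hypoxia pair for genotype at right; the dotted line marks equal differences. CDC25C (0.98 and 0.85) and NUF2 (-0.85 and -0.51) lie at opposite ends of the left panel, and CENPF (-0.12 and 0.60) lies off its line.

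Set by genotype label, more members were lower than higher in KD, by amounts whose intervals include 0. In normoxia 13 of 34 were higher in the array labelled KD and 21 lower, with a median of -0.05 (-0.20 to 0.03) against -0.01 over all genes, of which 47.9% were higher. In hypoxia the counts were again 13 and 21, with a median of -0.04 (-0.12 to 0.04) against -0.01. Centring the arrays on their medians brought these member medians to -0.017 and -0.013. These pairs share no array, and 16 members were lower and 8 higher in both, or 47.1% and 23.5%, where 31.8% and 28.4% of all genes were. Of the 32 members at the floor, 0 were at least 1.5-fold higher or lower in either pair with 16 added. Of tested genes 3.76% were that much higher and 2.82% lower in normoxia, and 2.74% and 2.59% in hypoxia. Without the added 16, UBE2C read 100.9 in WT normoxia and 65.1 in KD normoxia, just over 1.5-fold lower in KD.

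In limma's genotype term 0 of 32 members rose, against 2.94% of all tested genes, and 1 fell (3.13%, against 2.43%), while 8 had an unadjusted p under 0.05 (25%, against 22.3% of all tested genes). The term was below 0 for 21 of the 32 and above 0 for 11, where it was above 0 for 48.0% of all genes. Its median over the members was -0.10, where that of the hypoxia term was 0.12. The gene that fell was ANLN, anillin, which crosslinks actin and myosin in the cleavage furrow. It read 589 in WT normoxia, 456 in KD normoxia, 594 (593.5) in WT hypoxia and 424 in KD hypoxia, so both KD arrays lay below both WT arrays while the oxygen labels were close. It fell by 0.41 (SE 0.10, adjusted p = 0.0446). Its other probe set read 275, 224, 222 and 216, with a difference of -0.27 in normoxia and -0.04 in hypoxia. The call is lost without the prior's intensity trend (adjusted p = 0.232) and without the floor (0.213). When limma tested each probe set, 1 probe set of NUSAP1 rose by 0.55 (adjusted p = 0.00729) and 1 of TPX2 by 0.46 (adjusted p = 0.0373), neither of them the brightest of its gene, while 1 each of ANLN, AURKA and CDK1 fell. That is 2 rising and 3 falling of 59 member probe sets, where 706 rose and 729 fell of all 16936 tested, a like share.

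AURKA, the kinase that matures centrosomes and builds spindle poles, came next. It read 768, 552, 815 and 667, with both KD arrays lower, and its genotype term was -0.37 (SE 0.10, adjusted p = 0.0566). Its second probe set, at 508, 439.8, 479 and 561, was highest in KD hypoxia and had a mean genotype difference of 0.01. CDC25C (-0.32, adjusted p = 0.129), CDK1 (-0.17, adjusted p = 0.132), CCNB2 (-0.16) and CCNA2 (-0.15) had the KD array lower at both oxygen labels without passing the test. KIF2C had the largest value in the other direction, at 0.34 (adjusted p = 0.153), where its second probe set gave -0.15.

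The oxygen difference of WT, less the oxygen difference of KD, had a median of -0.05 over the 34 members (-0.11 to 0.11) against -0.01 over all genes. Of 32 members 0 were at least 1.5-fold higher by this measure, against 4.11% of tested genes, and 1 was at least 1.5-fold lower, against 3.44%. That member was CENPF at -0.72, and its other probe set gave 0.01. The next largest were UBE2C (-0.41), KIF4A (0.38), NUF2 (-0.35), PLK1 (0.33) and BUB1B (0.32). This difference cannot be tested with 1 array per group.

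For 19 members several probe sets were above the floor in all arrays. Their spread shows how far probe sets of 1 gene agree on the same arrays. It does not measure error between arrays or cultures. The mean oxygen difference had the same sign in all probe sets of 13 members and the mean genotype difference in 11, and the median range between probe sets of a gene was 0.13 and 0.19. The median range in single pairs of arrays was 0.18 to 0.26 for the members and 0.16 to 0.20 over 3981 genes for the 4 pairs. In single pairs the probe sets agreed in sign for 8 of 19 members for oxygen in WT and 13 in KD (61.8% and 62.3% of the 3981 genes), and for 11 for genotype in normoxia and 9 in hypoxia (60.8% and 55.8%). NUF2, with a hypoxia term of -0.68, had probe sets at -0.68 and -0.70, while INCENP, KIF2C, TPX2 and NUSAP1 had probe sets of either sign in at least 1 of the terms.

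**Figure D4:**
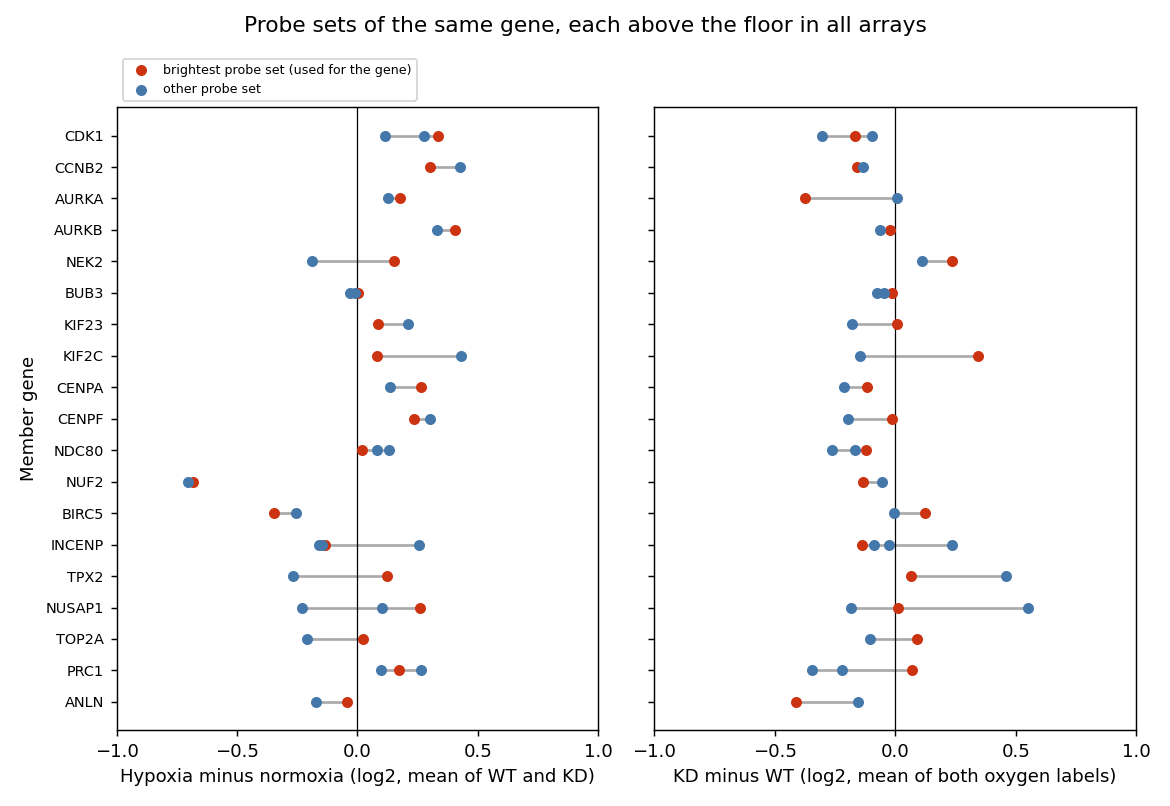
Mean log2 difference by oxygen label (left) and by genotype label (right) for each probe set of the 19 members with several probe sets above the floor in all arrays, 1 point per probe set and a grey line over their range. The points of NUF2, AURKB, BIRC5 and CCNB2 lie close together on 1 side of 0 at left, and those of KIF2C, TPX2 and NUSAP1 spread widely at right.

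Other genes of the cell cycle were read from lists named by role. Of 67 other G2 and mitosis genes, 60 were measured and 58 tested, and in the limma hypoxia term 4 rose (6.90%) and 1 fell (1.72%), where 4.72% and 4.17% of all genes did. Over all genes 3 rising and 4 falling calls are left without the prior's trend, and 39 and 38 without the floor, with 0 for genotype under either. MELK, a kinase of dividing cells, read 1165, 1221, 2168 and 2281 and rose by 0.89 (SE 0.08, adjusted p = 2.39e-04), as much in WT (0.89) as in KD (0.89). LMNB1, a lamin of the nuclear envelope, read 1219, 1356, 567 and 887 and fell by 0.84 (SE 0.12, adjusted p = 0.00249). DEPDC1 rose by 0.49 and CEP55, an abscission protein, by 0.43, as did SPAG5, a spindle protein, by 0.43. The list's median was 0.14 in WT and 0.10 in KD. By genotype 0 rose and 2 fell (0% and 3.45%, against 2.94% and 2.43% of all genes). Those that fell were ESPL1, separase (-0.43, adjusted p = 0.0374), and SMC4, a condensin subunit (-0.33, adjusted p = 0.0355). The list's genotype median was -0.09 in normoxia and -0.10 in hypoxia.

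S phase genes were nearer to 0 than the members by oxygen in KD cells, and close to the members in WT cells. Of 46 tested, 2 rose with labelled hypoxia and 0 fell, or 4.35% and 0%, near or under the shares over all genes. They were the E cyclins, which bring CDK2 into S phase: CCNE1 by 0.58 (adjusted p = 0.00461) and CCNE2 by 0.36 (adjusted p = 0.0394). The list's median was 0.07 in WT, with 31 of 46 higher, and 0.01 in KD, with 25 of 46 higher. By genotype UHRF1, which helps to maintain DNA methylation, rose by 0.60 (adjusted p = 0.0449), and MCM7, of the replicative helicase (-0.37, adjusted p = 0.0286), and PCNA, the sliding clamp (-0.27, adjusted p = 0.0421), fell. These calls were 2.17% and 4.35% of the list, against 2.94% and 2.43% of all genes. The median was -0.10 in normoxia, with 32 of 46 lower, and -0.12 in hypoxia, with 37 of 46 lower. Of 23 tested genes of the anaphase-promoting complex and mitotic exit, 3 rose with labelled hypoxia and 0 fell (13.0% and 0%, against 4.72% and 4.17% of all genes). They were the complex subunits CDC26 (0.59, adjusted p = 0.00492), ANAPC2 (0.44, adjusted p = 0.027) and ANAPC4 (0.27, adjusted p = 0.042). This list's oxygen median was 0.12 in WT and 0.19 in KD, with 18 and 17 of 25 measured genes higher. By genotype limma called 0, where 2.94% of all genes rose and 2.43% fell. An unadjusted p under 0.05 was found for 3 (13.0%, against 22.3% of all genes).

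Regulators upstream of these genes were called in both terms. Of 23 tested G1 cyclins, CDK inhibitors and RB, E2F and MuvB genes, 3 rose with labelled hypoxia and 0 fell. These were 13.0% and 0%, against 4.72% and 4.17% of all genes. By genotype 3 rose and 1 fell, or 13.0% and 4.35%, against 2.94% and 2.43%. CDKN2B, the CDK4 and CDK6 inhibitor p15, read 100.01, 196, 267 and 399, and rose by 1.13 with labelled hypoxia (SE 0.12, adjusted p = 8.09e-04) and by 0.71 in the genotype term (adjusted p = 0.0158). E2F5 rose by 0.64 and CDK6 by 0.47 with labelled hypoxia. In the genotype term CCND1, cyclin D1, rose by 0.52 (adjusted p = 0.0177), CDKN1A, the CDK inhibitor p21, rose by 0.28 (adjusted p = 0.044), and CDK6 fell by 0.61 (adjusted p = 0.0178). CDKN1A read 2493, 2996, 2807 and 3437, with both KD arrays above the WT array of the same oxygen label. CDKN1B, p27, read 52.8, 78.1, 29.02 and 63.99, below the floor in WT hypoxia, and was not called. MYBL2, B-MYB, read 2451, 2360 (2359.97), 2427 and 2764 and was not called. Of 18 tested p53 targets, CCNG1 rose by 0.34 with labelled hypoxia (5.56% rose and 0% fell, against 4.72% and 4.17% of all genes). CDKN1A and SFN (1.02, adjusted p = 0.00595) rose in the genotype term (11.1% rose and 0% fell, against 2.94% and 2.43%). Yet more of the list was lower than higher in KD. Of 21 measured, 13 were lower in normoxia (median -0.14, -0.31 to 0.18) and 14 in hypoxia (median -0.17, -0.21 to 0.27).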

How the data were processed

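The deposited values are intensity per probe set on a linear scale, and what the authors did to make them (summary, background, scaling) is not given in the sources used here. Labelling started from 100 ng of RNA, per the labels' protocols. Median intensities were 45.6 to 47.1. Of 42924 probe sets, 29254 had 1 gene symbol, 439 several and 13231 none. By gene ID 65 of 70 member probe sets matched RefSeq genes of assembly UU_Cfam_GSD_1.0. The 5 others (3 of CDK1, 1 each of CDC20 and CENPF) keep the platform's names. No coordinates are given, since builds differ.

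An additive model of oxygen and genotype was fitted to log2(intensity + 16) of 9834 genes with limma 3.58.1 (lmFit, eBayes with trend) under R 4.3.3. Its two-sided p-values were adjusted over all genes by Benjamini and Hochberg's method, with calls at 0.05. Its residual has 1 degree of freedom and its prior 8.10. The fit was run on simulated data with independent normal errors scaled by intensity, as the prior's trend assumes, and with added oxygen differences of at least 2-fold. No member had a term that large, so the simulation cannot show how well differences of the members' size are called. Figures used Python 3.11.15. The members and lists were chosen with earlier results of these data known. Any member could be named. From each other list up to 4 genes with the largest difference could be named, plus CDKN1A, CDKN1B, CCND1 and MYBL2. SPAG5, SMC4, PCNA, ANAPC4 and SPC24 fall outside that rule and were named after their values were seen. Promoter and protein motifs had been planned and were not analysed here. Alternatives were 3 scalings, 2 pseudocounts, other floors, probe set rules, the prior's trend and a 2-fold threshold.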

Additional observations from a re-analysis of the deposited data

Results flagged for a closer look

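Of the 34 measured members, 16 had opposite signs of a labelled difference in the compared groups, 10 between the oxygen responses of WT and KD cells, 10 between the genotype differences at each oxygen label, and 4 in both. Over all genes 54.5% had such opposite signs, 38.0% between the oxygen responses and 38.4% between the genotype differences. Each of these is a larger share than among the members. With 1 array per group the differences were not tested. Each value here is the log2 oxygen difference of WT less that of KD. Opposite in both were PLK1 (0.33), BUB3 (-0.060), PTTG1 (-0.18) and CENPF (-0.72). Opposite in the oxygen responses alone were FOXM1 (-0.088), TTK (-0.17), KIF2C (-0.22), NDC80 (-0.17), ANLN (0.11) and CDC25B (-0.27), the last below the floor in all arrays. Opposite in the genotype differences alone were AURKB (0.11), KIF23 (0.11), KIF4A (0.38), NUF2 (-0.35), TPX2 (0.16) and NUSAP1 (-0.075).

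A probe set that the annotation pairs with both UBE2C and LOC481325 entered no comparison, since it has several symbols. It read 1039.5 in WT normoxia, 1018 in KD normoxia, 1189 in WT hypoxia and 1157 in KD hypoxia, a labelled hypoxia minus normoxia difference of 0.19 in WT and 0.18 in KD. Its KD minus WT difference was -0.03 in normoxia and -0.04 in hypoxia. The dimmer probe set used for UBE2C gave -0.53 and -0.12. The oxygen difference of WT less that of KD was 0.01 here and -0.41 in the dimmer probe set.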

How the results depend on the processing

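Member medians stayed within their 95% intervals under the 3 scalings, both pseudocounts, the median over probe sets and the restriction to members above the floor. The median difference of the responses turned from -0.05 to 0.01 with the median over probe sets. At 2-fold, applied to the log2 differences, the counts of members 1.5-fold apart went to 0. They went there from 3 (oxygen in WT), 2 (oxygen in KD) and 1 (difference of the responses). The plain intensities of CDC25C were just over 2-fold apart by oxygen in WT. At 1.5-fold, cyclic loess left 1 for oxygen in KD. The 6 members called for hypoxia became 0 without the prior's trend and 0 without the floor, and 10 with quantile scaling, which added BUB1B, CENPF, KIF4A and NUSAP1. They became 7 with cyclic loess, which added KIF4A, and 7 with median centring or pseudocount 64, which added NUSAP1. When each probe set was tested 7 members were called, with 7 of 59 member probe sets rising and 3 falling. Of all 16936 probe sets tested, 853 rose and 800 fell. Over all genes limma called 3 rising and 4 falling for hypoxia without the trend, and 39 and 38 without the floor. Quantile scaling took the hypoxia calls over all genes from 464 rising and 410 falling to 742 and 775. The 1 member called for genotype became 0 without the trend and 0 without the floor (0 over all genes each), 2 with the floor at the 75th percentile, quantile scaling, cyclic loess or either pseudocount (AURKA joined ANLN), and 5 when each probe set was tested (2 rose, 3 fell). The cause was not tested. Scalings moved the median of all genes by at most 0.03. Leaving out 1 array leaves no residual degree of freedom. Median centring took the genotype calls over all genes from 289 rising and 239 falling to 486 and 255. Quantile scaling took them to 703 and 608, and cyclic loess to 553 and 379. No paired analysis was possible because each group has 1 array, beyond the additive model itself, which already compares oxygen within genotype and genotype within oxygen.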
